A study of Mus musculus with 15 samples.

Results

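Liver RNA-seq of ovariectomized female mice was examined for 3 genes, Bmp7, AA986860 and Tmem200b, among the 2545 genes of the deposited expression table. They were chosen with their values in view. They are the 3 genes with the smallest p-values among the genes higher in BZA than in Veh, and also among the genes higher in CE+BZA than in Veh. Their differences from Veh, and their differences between treatments with and without bazedoxifene, are therefore given as a description with no test.

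All 15 mice were females of the strain C57BL/6 (C57BL/6J in the study's methods) on a high-fat diet with 45% of calories from fat from 8 weeks of age, ovariectomized at 10 weeks, and treated for 6 weeks, with 3 mice in each of 5 groups. Veh mice received the solvent mix alone. E2 mice received estradiol, the main ovarian estrogen, at 5 µg/kg/day from release pellets. CE mice received conjugated estrogens, a mixture of estrogens used in menopausal hormone therapy, at 2.5 mg/kg/day, and the study describes osmotic minipumps for this agent. BZA mice received bazedoxifene, a selective estrogen receptor modulator, at 3 mg/kg/day. CE+BZA mice received conjugated estrogens and bazedoxifene together. Ovariectomy and diet were common to all 5 groups, so Veh stands for estrogen deficiency on this diet and not for an intact animal. The labels describe the RNA as 3 biological replicates per treatment, so each value is from 1 mouse, named here by its group and the number in the labels.

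Bmp7 encodes bone morphogenetic protein 7, a secreted ligand of the TGF-beta superfamily. BMP ligands bind pairs of type I and type II serine/threonine kinase receptors and act through receptor-regulated Smad proteins, while extracellular inhibitors such as follistatin and chordin-like proteins hold the ligands away from the receptors. In liver this pathway is best known for the control of hepcidin, the iron-regulating hormone, and BMP7 is studied as a counterweight to TGF-beta in fibrosis. AA986860, also listed as Sarg, is the mouse gene for the specifically androgen-regulated gene protein. Tmem200b encodes a transmembrane protein with little described function.

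In the GRCm38 annotation, Bmp7 (ENSMUSG00000008999.7) lies on the minus strand at chr2:172868012-172940321 with 2 annotated transcripts. AA986860 (ENSMUSG00000042510.7) lies on the plus strand at chr1:130731976-130744622 with 3 transcripts, and the antisense gene Gm28857 overlaps it. The counting is not stated to use strand, so reads of AA986860 and Gm28857 may not be separable. Tmem200b (ENSMUSG00000070720.3) lies on the plus strand at chr4:131921771-131923140 with 1 transcript, while RefSeq draws a longer gene, from 131919971 to 131923956. All 3 are protein-coding, and no annotated gene overlaps Bmp7 or Tmem200b.

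RefSeq promoter windows of 300 bases were matched for 2 of the 3 genes, AA986860 and Tmem200b. Because AA986860 was low in every Veh mouse, the 216 bases before its RefSeq start are shown (GRCm38.p6, plus strand, chr1:130731726-130731941), with a GC content of 55.1%.
AA986860 upstream: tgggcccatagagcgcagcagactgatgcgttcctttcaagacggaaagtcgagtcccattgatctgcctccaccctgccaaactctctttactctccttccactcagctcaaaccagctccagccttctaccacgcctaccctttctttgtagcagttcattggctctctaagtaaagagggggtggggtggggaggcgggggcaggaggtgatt
No letters are in capitals because none of the motifs searched was present. The motifs were the estrogen response element GGTCANNNTGACC, found in 0.07% of all 32851 windows, its AGGTCA core, found in 16.3%, the AP-1 site TGANTCA, found in 7.81%, the GC box GGGCGG, found in 35.7%, and the TATA box TATAAA, found in 13.6%, each on both strands. Every full element with A before GGTCA also counts as an AGGTCA core. The AA986860 window held 0 of each. The Tmem200b window began 1550 bases inside the RefSeq gene and held 2 GC boxes, 222 and 165 bases before the start it was drawn around, and 0 of the other motifs. These counts describe the letters in the windows and not binding of any factor.

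The deposited numbers are log2 values from which each gene's own median over all mice has been subtracted, so a value of 0 is the middle mouse of that gene. Levels can be compared between mice for a gene but not between genes. Each of the 3 genes had only 1 mouse at its lowest value, so no floor shared between mice was seen. This cannot show that the lowest mouse was above a detection floor.

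Bmp7 was lowest in Veh and highest in CE+BZA. Its log2 values were -1.58, -1.48 and -2.42 in Veh mice 1, 4 and 7, and -0.94, 0.31 and -0.65 in E2 mice 3, 4 and 5. They were -0.26, 0.01 and 0 in CE mice 3, 6 and 7, and 0.14, 1.26 and -0.0016 in BZA mice 1, 3 and 4. The CE+BZA mice 1, 2 and 3 had 0.31, 1.18 and 1.91. Every one of the 12 treated mice was above every Veh mouse, while E2 overlapped CE, CE overlapped BZA, and BZA overlapped CE+BZA. The CE+BZA mice were all above the CE mice by at least 0.30, and above the E2 mice by only 0.0003, the gap between CE+BZA mouse 1 and E2 mouse 4.

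The group means of Bmp7 were -1.83 ± 0.52 (SD, n = 3) in Veh, -0.42 ± 0.66 in E2, -0.08 ± 0.15 in CE, 0.47 ± 0.69 in BZA and 1.14 ± 0.80 with CE+BZA. Relative to Veh, Bmp7 was 1.40 higher on the log2 scale with E2 (2.64-fold), 1.74 with CE (3.35-fold), 2.29 with BZA (4.90-fold) and 2.96 with CE+BZA (7.79-fold), each with a standard error of 0.55. Mean Bmp7 RNA was above that of Veh with estrogens alone as well as with bazedoxifene. The choice of genes used the same Veh mice and favours low Veh values, so all of these differences may be too large.

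AA986860 was also lowest in Veh and highest in CE+BZA. Its log2 values were -1.82, -1.31 and -1.81 in Veh mice 1, 4 and 7, and -0.39, 0.19 and -0.89 in E2 mice 3, 4 and 5. They were 0.15, -1.06 and -0.65 in CE mice 3, 6 and 7, and 1.62, 0.29 and 0 in BZA mice 1, 3 and 4. The CE+BZA mice 1, 2 and 3 had 1.05, 1.49 and 1.03. As for Bmp7, all 12 treated mice were above the 3 Veh mice. The CE+BZA mice stood clear of the E2 mice by 0.84 and of the CE mice by 0.88, whereas the BZA mice overlapped E2, CE and CE+BZA.

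AA986860 had group means of -1.65 ± 0.29 (SD, n = 3) in Veh, -0.36 ± 0.54 in E2, -0.52 ± 0.62 in CE, 0.64 ± 0.87 in BZA and 1.19 ± 0.26 with CE+BZA. Against Veh this was a difference of 1.29 on the log2 scale in E2 (2.44-fold), 1.13 in CE (2.19-fold), 2.29 in BZA (4.88-fold) and 2.84 in CE+BZA (7.16-fold), each with a standard error of 0.53. E2 and CE were neighbours in this order and overlapped, and their order was the reverse of that for Bmp7.

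Tmem200b was high in the mice given bazedoxifene and low in the E2 and CE mice as in the Veh mice. Its log2 values were -0.51, -0.32 and -1.03 in Veh mice 1, 4 and 7, -0.72, 0.58 and -1.44 in E2 mice 3, 4 and 5, and 0, -0.09 and -0.52 in CE mice 3, 6 and 7. They were 1.64, 3.27 and 1.34 in BZA mice 1, 3 and 4, and 2.07, 2.51 and 2.60 in CE+BZA mice 1, 2 and 3. All 6 mice given bazedoxifene were above the other 9, with a gap of 0.77 between the lowest of the 6 (BZA mouse 4) and the highest of the 9 (E2 mouse 4). Veh, E2 and CE overlapped each other, and so did BZA and CE+BZA.

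The group means of Tmem200b were -0.62 ± 0.37 (SD, n = 3) in Veh, -0.53 ± 1.02 in E2, -0.21 ± 0.28 in CE, 2.08 ± 1.04 in BZA and 2.39 ± 0.29 with CE+BZA. The difference from Veh was 0.09 on the log2 scale in E2 (1.07-fold) and 0.42 in CE (1.33-fold), against 2.70 in BZA (6.52-fold) and 3.02 in CE+BZA (8.09-fold), with a standard error of 0.59. BZA was above E2 by 2.61 and above CE by 2.29, and CE+BZA was above them by 2.92 and 2.60. The matching differences were smaller for Bmp7, at 0.89 and 0.55 for BZA and 1.56 and 1.22 for CE+BZA, and for AA986860, at 1.0 and 1.16 for BZA and 1.55 and 1.71 for CE+BZA. Differences between the genes in this respect were not tested, because the genes were chosen from the bazedoxifene contrasts.

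**Figure D1:**
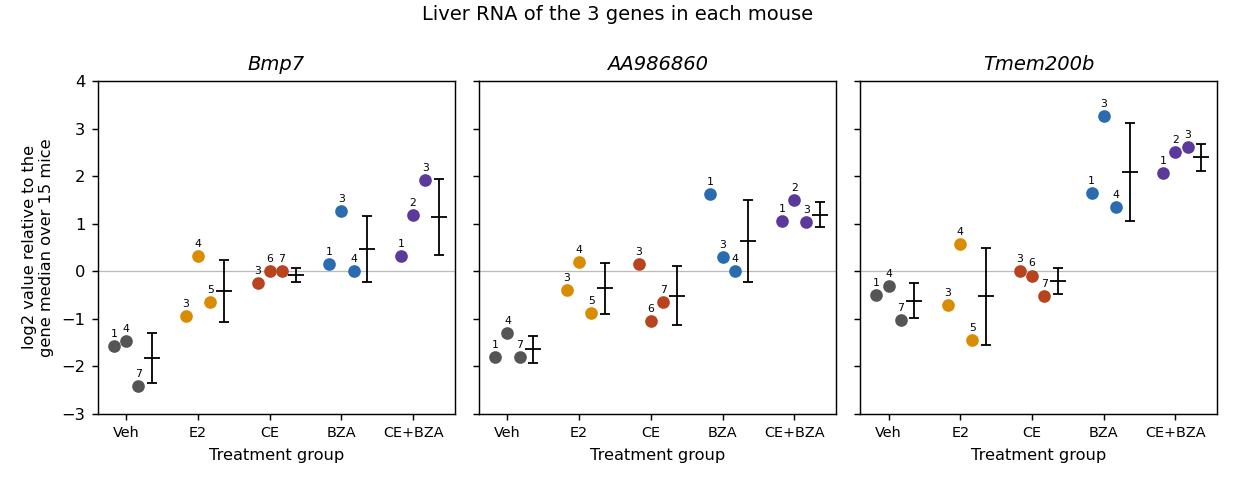
The log2 value of each gene relative to its median over the 15 mice, by treatment group. Points are single mice with their numbers, and bars are the group mean ± SD (n = 3). All 6 mice given bazedoxifene sit above the other 9 for Tmem200b, whereas for Bmp7 and AA986860 all 12 treated mice sit above the 3 Veh mice and the BZA mice overlap the E2 and CE mice.

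The whole table gives the background for these counts. All 12 treated mice were above the 3 Veh mice in 32 of the 2545 genes (1.26%), which include Bmp7 and AA986860 but not Tmem200b. All 6 mice given bazedoxifene were above the other 9 in 8 genes (0.314%) and below them in 3 (0.118%). Tmem200b had the widest gap of the 8. The others, named after their values were seen, were Il12rb1 (gap 0.58), Gdf9 (0.34), Samd1 (0.32), Ihh (0.14), S1pr5 (0.09), Kcnk5 (0.03) and Csrnp1 (0.03). Gdf9 and Ihh are, like Bmp7, secreted ligands, of the TGF-beta and hedgehog families. For Bmp7, 4 of the 6 mice given bazedoxifene were above all 9 others, and for AA986860, 5 of the 6 were. The 3 mice of a single group stood above the 3 Veh mice in 10.3% of genes for E2, 13% for CE, 10.5% for BZA and 14.8% for CE+BZA. Because the genes were chosen for a high level in BZA and CE+BZA, nothing is read from their place against those shares.

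The comparison of CE+BZA with BZA asks what conjugated estrogens added to bazedoxifene. The difference itself was not used in choosing the genes. The values of both groups were used, through their contrasts with Veh, so this test is not independent of the choice. Each gene had a higher mean in CE+BZA than in BZA, and none passed the limma test at a false discovery rate (FDR) under 0.05 over 2545 genes. Bmp7 was higher by 0.67 on the log2 scale (95% interval -0.49 to 1.83) with an FDR of 0.719 by limma. For AA986860 the difference was 0.55 (95% interval -0.56 to 1.67) with an FDR of 0.753 by limma, and for Tmem200b it was 0.31 (95% interval -0.93 to 1.55) with an FDR of 0.904 by limma. The upper ends of these intervals leave room for an added change of up to 3.55-fold for Bmp7, 3.18-fold for AA986860 and 2.93-fold for Tmem200b, so the data do not show that the combination and BZA alone gave equal levels. In this comparison 0 of all 2545 genes (0%) passed, and 223 (8.76%) had an unadjusted p under 0.05, the 3 genes not among them. Leaving out 1 mouse moved the Bmp7 difference to between 0.28 (without CE+BZA mouse 3) and 1.08 (without CE+BZA mouse 1), and the AA986860 difference to between 0.23 (without BZA mouse 4) and 1.05 (without BZA mouse 1). With quantile normalization the Tmem200b difference was 1.14, with an FDR of 0.513 by limma.

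The comparison of CE with E2 sets the estrogen mixture beside estradiol, at different doses and from different delivery devices. Bmp7 differed by 0.34 (95% interval -0.81 to 1.50) with an FDR of 0.872 by limma. AA986860 differed by -0.16 (95% interval -1.27 to 0.96) with an FDR of 0.956 by limma, and Tmem200b by 0.32 (95% interval -0.92 to 1.57) with an FDR of 0.888 by limma. None of the 3 passed, against 1 gene of 2545 (0.0393%) over the whole table and 232 (9.12%) at an unadjusted p under 0.05. The sign for AA986860 turned to 0.12 without E2 mouse 4 and to 0.11 without CE mouse 6, and the sign for Tmem200b turned to -0.13 without E2 mouse 5. For Tmem200b, CE+BZA minus BZA turned to -0.059 without BZA mouse 4.

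As a description, the level in CE+BZA was compared with the sum of the separate CE and BZA differences from Veh. It fell short of that sum by 1.07 on the log2 scale for Bmp7 (SE 0.77), by 0.58 for AA986860 (SE 0.75) and by 0.11 for Tmem200b (SE 0.83). For Tmem200b most of the sum came from BZA. For Bmp7 and AA986860 the CE and BZA means were each above the mean of the same Veh mice.

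**Figure D2:**
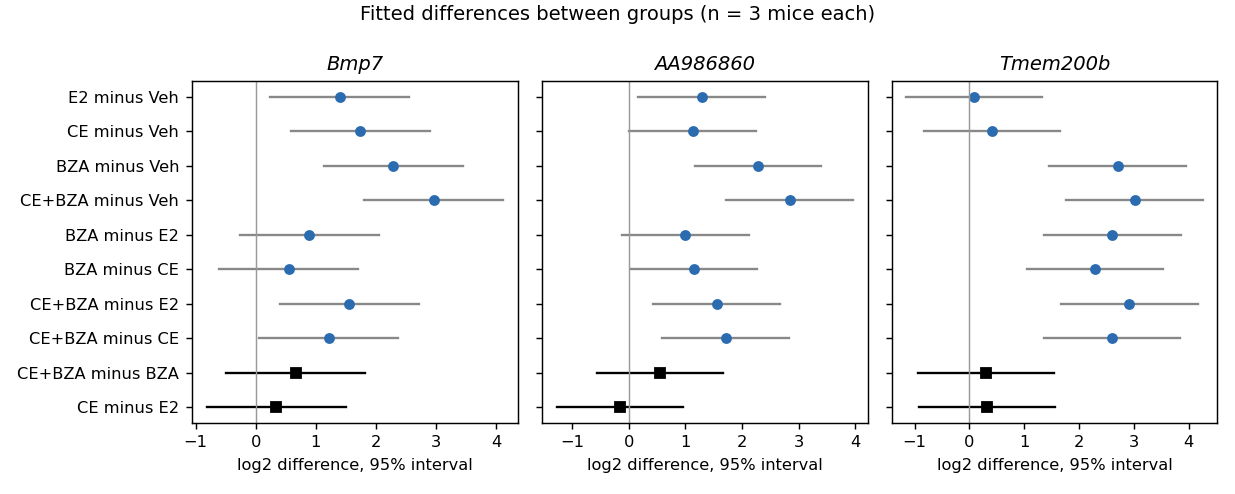
Fitted log2 differences between groups for each gene, with 95% intervals (n = 3 mice in each group). Circles are differences that overlap with how the genes were chosen and have no test. Squares are the comparisons that were tested by limma, CE+BZA minus BZA and CE minus E2, whose intervals all include 0. The BZA and CE+BZA values also entered the choice of genes, through their contrasts with Veh.

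The 3 genes followed each other over the 15 mice. Pearson's r was 0.80 between Bmp7 and AA986860, 0.83 between Bmp7 and Tmem200b, and 0.80 between AA986860 and Tmem200b, with Spearman's rho of 0.83, 0.86 and 0.80. These values describe 15 mice that share 5 treatments and 1 normalization, and the genes were chosen for high values in the same groups. With each group mean subtracted, r stayed at 0.79 for Bmp7 and Tmem200b but was 0.07 for Bmp7 and AA986860, and 0.27 for AA986860 and Tmem200b. Mice of a group that were high in Tmem200b thus tended to be high in Bmp7, with BZA mouse 3 and CE+BZA mouse 3 as examples. Among the BZA mice, AA986860 was highest in mouse 1, whereas Bmp7 and Tmem200b were highest in mouse 3. Without BZA mouse 3 the 3 within-group values were 0.23 for Bmp7 and AA986860, 0.70 for Bmp7 and Tmem200b, and 0.58 for AA986860 and Tmem200b.

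The genes most like each of the 3 over the 15 mice were found by Pearson's r among genes with fewer than 5 mice at their lowest value. For Bmp7 they were Spata2l (r = 0.885), Pck1 (0.882) and Rab4a (0.875). Pck1 encodes the cytosolic phosphoenolpyruvate carboxykinase of gluconeogenesis, and Rab4a a small GTPase of endosome recycling. The 5th and 95th percentile of r with Bmp7 over the other genes were -0.61 and 0.66. Pck1 had group means of -1.0 in Veh, -0.48 in E2, 0.15 in CE, 0.29 in BZA and 0.98 with CE+BZA, the same order as Bmp7 over a narrower range.

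For AA986860 the genes most alike included Kcnk5 (r = 0.885), which encodes a potassium channel, and Map3k6 (0.837), a kinase of the MAP kinase cascade. Kcnk5 had group means of -0.79 in Veh, -0.29 in E2, -0.46 in CE, 0.31 in BZA and 0.57 with CE+BZA. E2 was above CE for Kcnk5 as for AA986860. Map3k6 ran from -0.79 in Veh to 0.74 in CE+BZA.

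For Tmem200b the nearest genes were Tat (r = 0.883), AC163617.1 (0.875) and S1pr5 (0.860). Tat encodes tyrosine aminotransferase, a liver enzyme of amino acid breakdown, and S1pr5 a receptor for sphingosine-1-phosphate. Tat had group means of -0.26 in Veh, 0.13 in E2 and -0.14 in CE, and of 0.61 in BZA and 1.12 with CE+BZA. S1pr5 and Kcnk5 are also among the 8 genes in which all 6 mice given bazedoxifene were above the other 9.

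**Figure D3:**
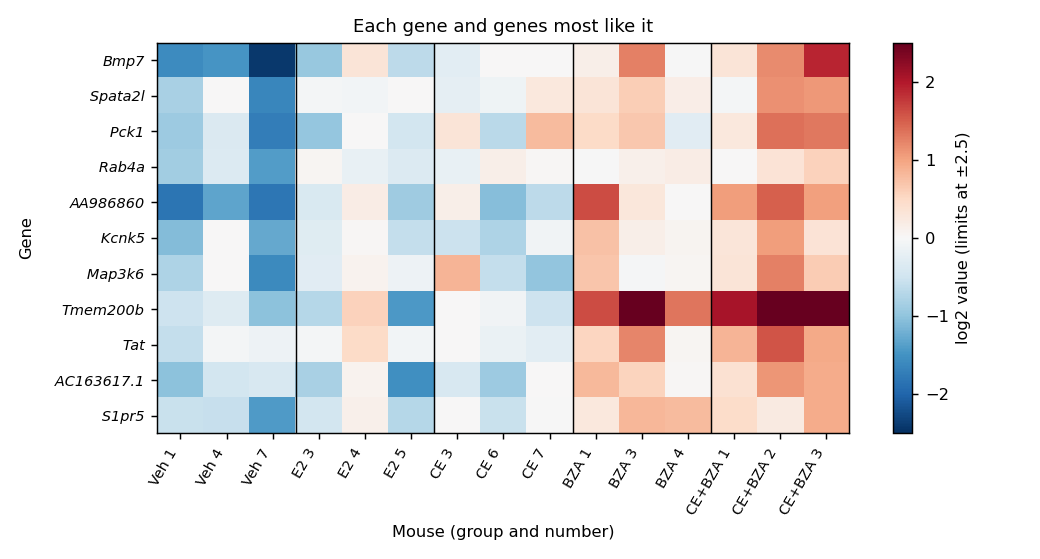
The log2 values of Bmp7, AA986860 and Tmem200b and of genes most like each, by mouse, with colour limits at ±2.5. Most values are blue (below 0) in the Veh mice and red (above 0) in the CE+BZA mice, with the strongest red in Tmem200b (highest value 3.27, BZA mouse 3).

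Next, the other genes of the BMP and TGF-beta family were examined, from a list of 104 ligands, receptors, inhibitors, signal transducers and targets without Bmp7. Only 18 of the 104 were among the 2545 genes, namely 4 of 22 BMP and GDF ligands, 2 of 11 other ligands, 1 of 19 receptors, 8 of 31 inhibitors, 0 of 6 signal transducers and 3 of 15 targets. Of the listed receptors and signal transducers only Rgma, a BMP co-receptor, was among the 2545 genes. The receptors and Smad proteins that would carry a BMP7 signal were thus not analysed here. The list of Tmem200b relatives had 0 of 2 genes among the 2545.

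At an FDR under 0.05 and a change above 2-fold by limma, 0 of the 18 passed in any treatment against Veh. The share of all genes that passed was 0.196% for E2, 0.157% for CE, 0% for BZA and 0.118% for CE+BZA. When the unadjusted p under 0.05 was taken with the same fold, E2 had 0 of the 18 higher and 0 lower, where the shares of all genes were 6.52% and 8.61%. CE had 4 higher and 1 lower, beside 10.1% and 8.45% of all genes. BZA had 5 higher and 0 lower, beside 8.92% and 7.47%. CE+BZA had 7 higher and 2 lower, beside 11.6% and 9.55%, which is the treatment with the most of the 18 past this threshold. The 18 genes had a median log2 difference of 0.37 for E2, 0.55 for CE, 0.78 for BZA and 0.78 for CE+BZA, beside 0, 0.06, 0.11 and 0.08 over all genes, and 15, 13, 15 and 15 of the 18 had a positive difference. The 4 comparisons share the same 3 Veh mice.

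Among the ligands, Gdf9, a growth factor best known from the oocyte, had values of 1.11, 0.41 and 0.45 in BZA mice 1, 3 and 4 and of 0.89, 0.74 and 0.86 in CE+BZA mice 1, 2 and 3. The Veh, E2 and CE mice ranged from -1.10 to 0.07, so the groups with and without bazedoxifene did not overlap, as for Tmem200b. Its difference from Veh was 1.37 for BZA and 1.54 for CE+BZA, with limma FDRs of 0.276 and 0.167. Gdf15, a stress-induced hormone that limits food intake, was 2.24 above Veh in CE+BZA (FDR 0.224 by limma), but its CE+BZA mice were -0.48, 2.56 and 3.60 and overlapped Veh. Bmp3 was above its lowest value in only 2 mice, BZA mouse 1 (1.89) and BZA mouse 3 (1.35), and 13 mice sat at that lowest value.

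The receptor side was represented by Rgma, a BMP co-receptor, which was 2.23 above Veh in CE+BZA (FDR 0.220 by limma). Its CE+BZA mice had 1.24, 1.49 and 2.45, and its Veh mice 0.24, -0.99 and -0.76, without overlap. The CE mice of Rgma ranged from -2.58 to 2.26.

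Of the inhibitors, Fst, which encodes follistatin, had the pattern nearest to the 3 genes, with r of 0.75 to Bmp7, 0.80 to AA986860 and 0.83 to Tmem200b. Its mean was -1.19 in Veh, -1.14 in E2, 0.20 in CE, 0.65 in BZA and 1.14 with CE+BZA. The 3 Veh mice and the 3 E2 mice, from -2.33 to -0.48, were below every BZA and CE+BZA mouse, from 0 to 1.58. The difference from Veh was 1.84 for BZA and 2.33 for CE+BZA, with limma FDRs of 0.221 and 0.105. Chrdl2, chordin-like 2, was at its lowest value in all 3 Veh mice and in no other mouse. Its difference from Veh in CE+BZA was fitted at 2.79 (FDR 0.0683 by limma), where the CE+BZA mice had 1.51, 1.05 and 0.51, and the size of that fold depends on the lowest value given to the Veh mice. Past the unadjusted threshold were also Bmper (1.55 above Veh for CE and 1.63 for CE+BZA), Kcp (1.15 for CE+BZA) and Vwc2 (1.45 for BZA), with limma FDRs of 0.261, 0.227, 0.225 and 0.297. Fst and Chrdl2 met this threshold with estrogens alone too, each 1.40 above Veh in CE (FDR 0.249 and 0.255 by limma). In BZA, Chrdl2 met it at 1.54 above Veh (FDR 0.283 by limma).

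Both targets that met the unadjusted threshold were lower. Hamp2, a hepcidin gene, had mean values of 0.02 in Veh, 0.79 in E2, -0.43 in CE, -0.84 in BZA and -1.76 with CE+BZA. The negative CE mean came from CE mouse 3 (-2.70), with 0.72 and 0.68 in CE mice 6 and 7. Hepcidin protein and iron were not part of these data. All CE+BZA mice of Hamp2 (-0.67, -2.31 and -2.30) were below all Veh mice (0.09, -0.02 and 0), with a difference of -1.78 (FDR 0.230 by limma). Id4, of the Id family that BMP signals induce, had a mean of 0.50 in Veh and -0.71 in CE+BZA, a difference of -1.21 (FDR 0.222 by limma). Bmp7 and these targets thus differed from Veh in opposite directions in CE+BZA, although neither target passed the test over all genes. The remaining listed target among the 2545 genes was 0.20 above Veh in CE+BZA (SE 0.68) and did not meet the unadjusted threshold. Its direction is not resolved, and only 3 of 15 listed targets were among the 2545 genes.

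**Figure D4:**
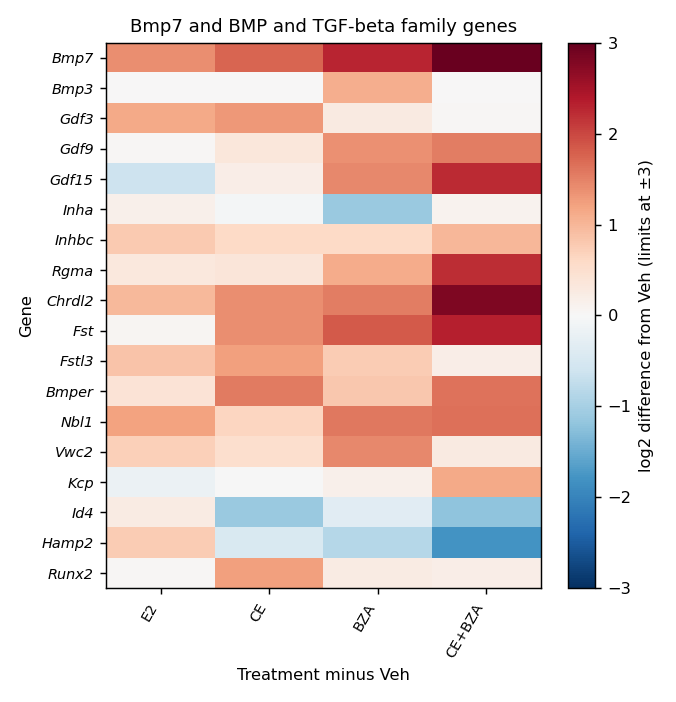
Log2 difference from Veh of Bmp7 and of other BMP and TGF-beta family genes, by treatment, with colour limits at ±3. Bmp7 has the darkest row, Fst and Chrdl2 follow in CE+BZA, Hamp2 and Id4 are blue in CE+BZA, and none of these family genes passed at an FDR under 0.05 by limma.

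The libraries were then examined for RNA of other cell types. In bulk RNA, fewer cells of a type and less RNA per cell cannot be told apart. Of the hepatocyte markers only 4 of 16 were among the 2545 genes (Tat, Pck1, Cyp7a1 and Glul), so the label of liver was not checked against albumin and other defining genes. The mean of the 4 was -0.49 for Veh, -0.09 for E2, -0.19 for CE, 0.34 for BZA and 0.52 for CE+BZA. Tat and Pck1, which are among the genes most like the 3, each had their highest means in BZA and CE+BZA. For Pck1 the mean of CE was above that of E2, unlike in the mean of the 4. Cyp7a1, the rate-limiting enzyme of bile acid synthesis, had differences from Veh of -0.38, -1.01, -0.03 and -0.27 for E2, CE, BZA and CE+BZA, and Glul, glutamine synthetase, of 1.08, 0.96, 1.16 and 0.95. The part of hepatocyte content in the results was not tested.

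BZA mouse 3 had a mean of 5.85 over 10 of 11 pancreas acinar markers, while the other 14 mice had -0.08 to 0.55. The same mouse had a mean of 3.23 over 8 of 12 adipocyte markers, with 0.61 and -0.40 in BZA mice 1 and 4. The adipocyte mean was 0.86 to 0.96 in Veh, -0.48 to -0.41 in E2, -0.60 to -0.10 in CE and -0.10 to 0.17 in CE+BZA. The list was split, since Cfd, Plin4, Pparg and Car3 were lower than Veh in every treatment (Cfd by -5.62 for E2 and -4.28 for CE+BZA), whereas Adipoq, Plin1, Lep and Retn sat at their lowest value in 9 to 14 mice. BZA mouse 1 had the highest mean over 10 of 18 markers of duct epithelium (1.74, with the CE+BZA mice at -0.64 to -0.20) and over 4 of 8 mesothelium markers (1.66). The mesothelium mean was -1.71 to -0.40 in Veh, 0.44 to 1.17 in E2, -0.72 to -0.25 in CE and -0.82 to 0.89 in CE+BZA.

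BZA mouse 3 had the highest Tmem200b of all mice and the highest Bmp7 among the BZA mice, and BZA mouse 1 had the highest AA986860 of all mice. BZA mouse 4 had -0.47 for duct epithelium, -0.49 for mesothelium, 0.06 for pancreas acinar and -0.40 for adipocyte markers, and it was above every Veh mouse for each of the 3 genes. With BZA mice 1 and 3 left out, which leaves 1 BZA mouse assumed to vary like the others, the difference from Veh was 1.82 for Bmp7, 1.65 for AA986860 and 1.96 for Tmem200b. In the same setting BZA minus E2 was 0.42 for Bmp7, 0.36 for AA986860 and 1.87 for Tmem200b, and BZA minus CE was 0.08, 0.52 and 1.55. Leaving out BZA mouse 3 alone gave 0.15 for Bmp7 in BZA minus CE. The CE+BZA mice had -0.04 to 0.11 for acinar markers, and CE+BZA mouse 3, the mouse with the highest Bmp7, had 0.89 for mesothelium markers.

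The remaining marker lists are given by the range of mouse means. CE mouse 3 had 5.77 over 9 of 10 neutrophil markers, and the other groups ranged from -1.14 to 1.01. CE mouse 3 was the highest CE mouse for AA986860 and Tmem200b and the lowest for Bmp7. Kidney tubule markers (2 of 12) ranged from -0.17 to 2.81, stellate cell and fibroblast markers (2 of 14) from -0.86 to 1.47, and macrophage markers (3 of 12) from -1.35 to 1.29, with the highest of the last 2 lists in BZA mouse 1. Lymphocyte markers (5 of 12) ranged from -0.68 to 0.98 and erythroid markers (6 of 11) from -1.50 to 1.78, both highest in BZA mouse 3, and 0 of 11 endothelium markers were among the 2545 genes. The part of these cell types in the levels of the 3 genes was not tested.

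**Figure D5:**
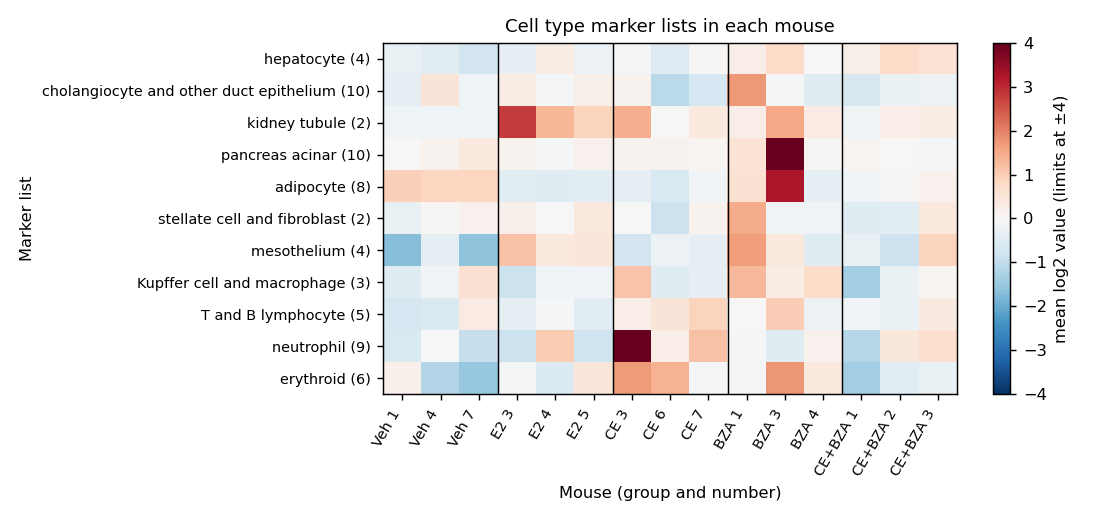
Mean log2 value of each cell type marker list by mouse, with the number of genes in parentheses and colour limits at ±4. BZA mouse 3 stands apart in pancreas acinar (5.85) and adipocyte (3.23) markers, CE mouse 3 in neutrophil markers (5.77), and BZA mouse 1 in duct epithelium (1.74) and mesothelium (1.66) markers, while the CE+BZA mice reach at most 0.89 in these 5 lists.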

How the data were processed

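Poly-A RNA of 15 livers was sequenced from TruSeq libraries. Per the paper, the authors aligned trimmed reads with TopHat against the mouse reference, took gene values from StrandNGS with partial reads counted, and normalized by DESeq. The deposited values are log2 values centred on each gene's median, which came to 0 for 2545 of 2545 genes, and 1045 genes had at least 2 mice at their lowest value. The filter behind the 2545 genes is not given in the sources used here. Columns were matched to mice by name, with 0 unmatched and 0 identical pairs of mice. The labels describe reads from both ends and 2 sequenced samples per group, whereas the paper describes single-end reads and 3 samples, and 15 mice are in the table.

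No pseudocount or filter was applied. The 5 group means were fitted over the 15 mice and 2545 genes with limma 3.58.1 in R 4.3.3, with Benjamini-Hochberg adjustment over all genes and a threshold of 0.05, plus a change above 2-fold for calls against Veh. Python 3.11.15 with pandas 2.3.3 and numpy 2.4.6 gave the other values. Simulated shifts of known size were used to check the fit. Positions come from GENCODE by symbol, and sequences from RefSeq.

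The 3 genes, the gene lists and the comparisons were chosen with earlier results of these data known. Named genes are the 3, the 3 genes most like each by Pearson's r, listed pathway genes and cell type markers. Genes named outside this rule are said to be so, while a few that meet it are left unreported. The table does not give sequencing depth. A step of a single read was worth 0.840 to 1.14 normalized counts, but only 50.5 to 72.4% of low values came out whole within 0.01 reads, so no count test was run. Partial reads kept the read numbers of the 3 genes from being recovered, and the counting error of single values is unknown. Alternatives were quantile normalization, centring of each mouse, a filter on low values, no shrinkage of the variance, a mean-variance trend, a fit of the compared groups alone, a replicate block, and leaving out each mouse.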

Additional observations from a re-analysis of the deposited data

How the results depend on the processing

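Beside the alternatives that leave out 1 mouse, 174 values kept their direction and call or moved by less than the replicate spread, 14 moved further and 1 turned. Part of the 174 could not change. No shrinkage, the trend, the filter on low values and the fit of the compared groups alone leave a fitted difference as it is. Leaving out BZA mice 1 and 3 does the same for differences without the BZA group. The tested comparisons were labelled by sign and call alone. Tmem200b in CE+BZA minus BZA thus counted as kept, at 0.31 in the main fit and 1.14 with quantile normalization. The turned value was AA986860 in CE minus E2, at 0.063 with the replicate number as a block, and the same block gave 0.55 for BZA minus CE, 0.97 for CE+BZA minus E2 and 0.91 for CE+BZA minus CE. Without BZA mice 1 and 3, chosen after seeing their marker genes, AA986860 was 1.65 for BZA minus Veh, 0.36 for BZA minus E2 and 0.52 for BZA minus CE, Tmem200b was 1.96, 1.87 and 1.55, and Bmp7 was 1.82, 0.42 and 0.08. Leaving out 1 mouse at a time gave -0.49 to 0.12 for AA986860 in CE minus E2. For Tmem200b it gave -0.059 to 0.90 for CE+BZA minus BZA, -0.13 to 0.88 for CE minus E2, and -0.46 to 0.55 for E2 minus Veh, which was -0.11 without Veh mouse 7 and -0.46 without E2 mouse 4. Among the 18 pathway genes, 1 passed in CE without shrinkage and 1 without BZA mice 1 and 3, and 0 to 1 in CE+BZA with 1 mouse left out (Chrdl2, FDR 0.0450 by limma without E2 mouse 3). With the unadjusted p the counts were 5 for CE, 5 for BZA and 9 for CE+BZA. The causes were not tested.

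The FDR by limma over all alternatives was 0.592 to 0.95 for Bmp7, 0.47 to 0.97 for AA986860 and 0.513 to 0.989 for Tmem200b in CE+BZA minus BZA, and 0.747 to 1, 0.879 to 1 and 0.736 to 0.993 in CE minus E2. Over all genes, the deviations of the 13 pairs of mice with the same replicate number correlated at -0.05 to 0.10. Those of the 77 other pairs correlated at -0.18 to 0.23, a range that holds the first. The pairs reuse the same mice, so these values cannot show whether a shared number stands for a pairing. With the replicate block 0 genes of the table passed in any of the 6 comparisons, against 0 to 5 without it. Quantile normalization shifted the median of a mouse by -0.28 (CE mouse 3) to 0.24 (BZA mouse 4). With 3 mice per group the intervals were wide, and any difference inside an interval remains compatible with the data.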
